A study of Komagataella pastoris with 60 samples.

Results

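The comparison was between *rps7*∆ and the wild type (wt) of *Pichia pastoris* GS115, and the quantity was the ribosome loading of each gene, that is, its abundance in mRNA attached to ribosomes (RNC-mRNA) relative to its abundance in total polyA+ mRNA. It used 24 of the 60 libraries of the series, chosen by strain and library type: *rps7*∆ and wt, mRNA and RNC-mRNA, at 24, 48 and 72 h, with 2 replicates of each. *rps7*∆ lacks the gene *RPS7* and wt keeps it. Both strains, wt included, carried the gene of the *Citrobacter amalonaticus* phytase (Phy) behind the methanol-induced *AOX1* promoter, and both grew in methanol medium. The other 36 libraries belong to deletion strains of other ribosomal protein genes, of which only *rps25*∆ enters, in a closing comparison. The study aimed at a single integrated copy of Phy, and all cultures were fed methanol, so no culture on glucose is represented.

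Rps7 is a protein of the small (40S) ribosomal subunit. In *Saccharomyces cerevisiae* it lies in the body of that subunit next to Rps22 and Rps27 and is needed for making the 18S rRNA. mRNAs in ribosome-nascent chain complexes are held by translating ribosomes, so their abundance relative to total mRNA describes how much of a gene's mRNA is engaged in translation. In yeasts, mRNAs of ribosomal proteins are short, abundant and densely loaded in growing cells, and their synthesis falls when growth slows.

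The deletion was visible in every library. *RPS7* had 11 to 72 reads in the 6 RNC-mRNA libraries and 2 to 16 reads in the 6 mRNA libraries of *rps7*∆, against 2358 to 12494 and 1967 to 6316 reads in those of wt. Host gene reads ran between 2792012 and 7610894 in RNC-mRNA and between 3404340 and 9941690 in mRNA of *rps7*∆, and between 2257857 and 9363146 in RNC-mRNA and between 4906048 and 10784118 in mRNA of wt. Replicates correlated at 0.978 to 0.997 over genes, and no pair was as close as counting noise alone (chi-square per degree of freedom 2.43 to 25.2), so all were kept as separate samples. The factors of the trimmed mean of M values (TMM), which correct for the composition of each library, were 0.737 to 1.49 in RNC-mRNA and 1.11 to 1.67 in mRNA of *rps7*∆, and 0.593 to 0.680 in RNC-mRNA and 0.939 to 1.09 in mRNA of wt. They differed more between the strains in RNC-mRNA than in mRNA, and most counts below depend on them.

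Ribosomal protein mRNAs lost loading in *rps7*∆ relative to the typical gene. The loading change is the log2 ratio of RNC-mRNA to mRNA in *rps7*∆ minus that in wt, so a negative value means lower loading in *rps7*∆. Averaged over the 3 times, 50 of 85 ribosomal protein genes (*RPS7* left out) fell at an adjusted p under 0.05 and 0 rose (edgeR quasi-likelihood test, Benjamini-Hochberg adjustment over all genes). The large subunit gave 31 of 49 with a median of −0.42 and the small subunit 19 of 36 with a median of −0.34. Among all 5235 host genes tested the background was 18.2% lower and 19.4% higher (952 and 1016 genes), with a median of 0.01. At an unadjusted p under 0.05 in edgeR 2 ribosomal protein genes were higher, and DESeq2 called 0.

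**Figure D1:**
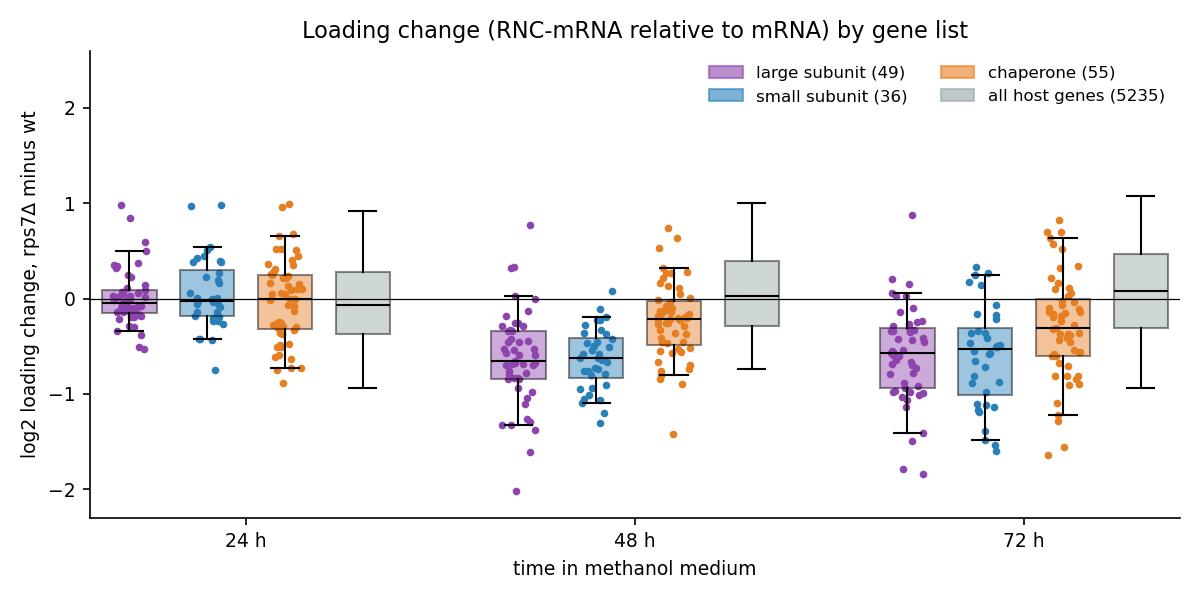
Change of ribosome loading in *rps7*∆ against wt (y axis, log2) of the genes of the large subunit, the small subunit, the chaperone list and all host genes at 24, 48 and 72 h; points are genes (not drawn for all host genes), boxes span the quartiles with the median as a line, and whiskers run to the 5th and 95th percentiles. The boxes of both subunits lie around 0 at 24 h and below it at 48 h (medians −0.65 and −0.62) and 72 h (−0.57 and −0.53).

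The calls lay at the later times. At 24 h, 3 of the 85 ribosomal protein genes passed upward and 1 downward, near or below the background of 9.91% higher and 12.1% lower, with a median of −0.03. The 4, named after their values were seen, were *RPS30* (0.98), *RPP1A* (0.84) and *RPL10* (0.59) upward and *RPS20* (−0.75) downward. At 48 h, 0 rose and 42 fell, with a median of −0.63, against a background of 10.1% higher and 9.3% lower. At 72 h, 0 rose and 37 fell, with a median of −0.56, against 16.8% higher and 13.6% lower. Of the ribosomal protein genes that fell, 20 did so at both 48 and 72 h. Over all host genes 487 fell at 48 h and 711 at 72 h, and 204 did so at both. With 1 ribosomal protein gene downward at 24 h, no more than 1 could fall at all 3 times, and 0 did. Higher values at an unadjusted p under 0.05 numbered 0 at 48 h and 0 at 72 h in edgeR, and DESeq2 also called 0 higher at either time.

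The change over time was itself tested. The loading change differed among the 3 times for 26 of the 85 ribosomal protein genes, or 30.6%, against 26.5% of all host genes (1389), so the ribosomal protein genes passed this test about as often as other genes did. Most of the 85 shared a direction. Of the 85, 82 had a lower value at 48 h than at 24 h and 74 a lower value at 72 h than at 24 h. The same was not counted over all host genes or over other short or heavily loaded genes. The median loading change of all host genes was −0.06, 0.03 and 0.08 at 24, 48 and 72 h. In 24 of the 26 ribosomal protein genes that passed, both later times lay below 24 h, and the other 2 were *RPS2* and *RPS20*. This too was not counted over other genes, so the shared direction is not shown to be particular to ribosomal protein genes.

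The counts at the later times depended on which library was left out. At 48 h the 25 large subunit and 17 small subunit calls became 11 and 7 without replicate 2 of *rps7*∆ mRNA, 12 and 7 without replicate 2 of wt RNC-mRNA, 13 and 9 without replicate 1 of *rps7*∆ RNC-mRNA, and 16 and 8 without replicate 1 of wt mRNA. At 72 h the 22 and 15 calls became 11 and 9 without replicate 2 of wt RNC-mRNA and 12 and 9 without replicate 2 of *rps7*∆ RNC-mRNA, while leaving out replicate 1 of *rps7*∆ RNC-mRNA gave 37 and 22. In a fit of all 60 libraries, whose spread between replicates was larger (biological coefficient of variation 16.2%, against 8.73% with 24 libraries), 6 large subunit and 2 small subunit genes fell on average.

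After TMM scaling, both kinds of library of *rps7*∆ held less ribosomal protein mRNA, and the RNC-mRNA libraries differed more. Averaged over times, 82 of 85 genes fell in RNC-mRNA and 78 of 85 in mRNA, and 0 rose in either; over all host genes 35.9% fell and 41% rose in RNC-mRNA and 37.1% fell and 40.8% rose in mRNA. Of the 50 genes with lower loading, 47 had fallen in both, and *RPL22*, *RPL37* and *RPS27B* had fallen in RNC-mRNA alone. Among all 952 host genes with lower loading, 424 had fallen in both.

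Library by library, the median of the 85 genes showed the same order. At 24 h it was 10.08 and 10.37 log2 CPM (reads scaled to a common library total, with TMM factors) in RNC-mRNA of *rps7*∆, against 10.69 and 10.63 in that of wt. At 48 h it was 7.79 and 7.87 in *rps7*∆ and 10.08 and 10.51 in wt, and at 72 h 7.85 and 7.41 in *rps7*∆ and 10.21 and 10.41 in wt. In mRNA it was 8.41 and 8.39 in *rps7*∆ against 8.56 and 8.79 in wt at 24 h, 6.28 and 6.42 against 8.08 and 8.08 at 48 h, and 5.74 and 5.72 against 8.02 and 7.91 at 72 h. With this scaling the strains did not overlap at any time in either assay, and the gap was smallest at 24 h. By share of host reads they did overlap in RNC-mRNA at 24 h, with 7.96 and 9.10% in *rps7*∆ against 9.08 and 8.72% in wt.

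**Figure D2:**
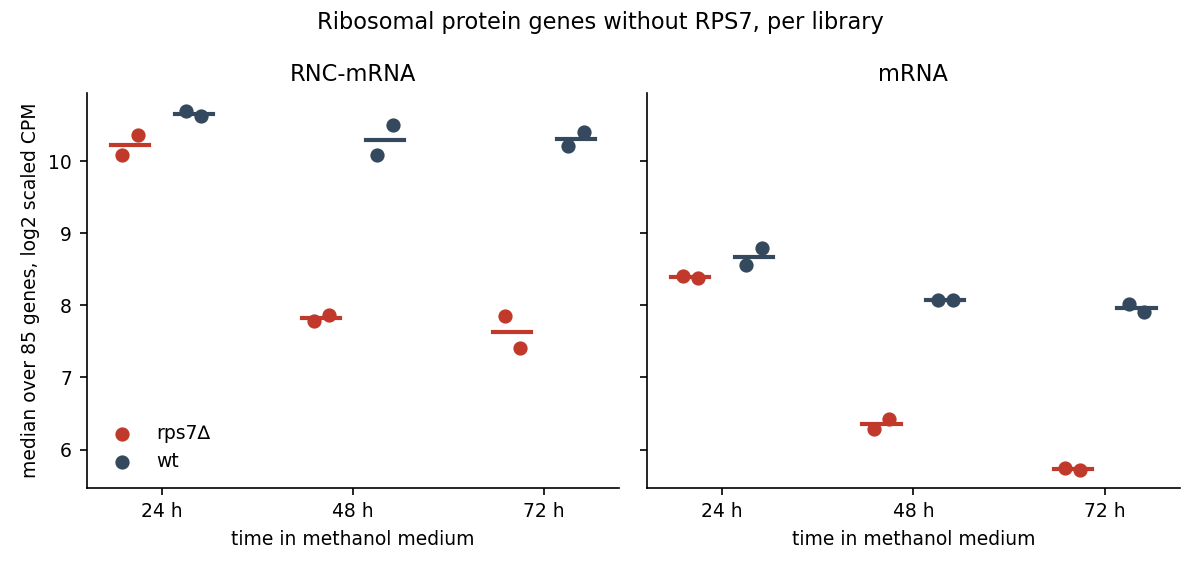
Median level of the 85 ribosomal protein genes (y axis, log2 CPM after TMM scaling) in each library of *rps7*∆ and wt at 24, 48 and 72 h, with RNC-mRNA and mRNA in separate panels; each point is 1 library and bars are the means of 2. At 48 and 72 h the *rps7*∆ points lie between 7.41 and 7.87 in RNC-mRNA, against 10.08 to 10.51 in wt, and between 5.72 and 6.42 in mRNA, against 7.91 to 8.08.

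The loading of each strain by itself gives the size on its own scale. The median log2 ratio of RNC-mRNA to mRNA over the 85 genes was 2.01, 1.57 and 1.84 at 24, 48 and 72 h in *rps7*∆, against 2.04, 2.12 and 2.42 in wt. Ribosomal protein mRNAs thus remained among the loaded ones in *rps7*∆, with 84, 84 and 85 of 85 genes above 0, as were all 85 at each time in wt. In *rps7*∆ 2413, 2603 and 2777 of the 5235 host genes were above 0. Most other genes of the shortest quintile by listed length were also above 0 there, with 731, 761 and 775 of 982. Over all host genes the medians were −0.13, 0.00 and 0.08 in *rps7*∆ and −0.07, −0.06 and −0.08 in wt.

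This loss is relative to the typical gene and was not seen in the share of reads. Ribosomal protein genes took 7.96 and 9.10% of host reads in RNC-mRNA of *rps7*∆ at 24 h, 3.17 and 3.23% at 48 h and 2.35 and 2.02% at 72 h, against 9.08 and 8.72%, 7.02 and 8.23%, and 6.45 and 7.48% in wt. In mRNA they took 3.31 and 3.33%, 1.22 and 1.39%, and 0.798 and 0.781% in *rps7*∆, against 3.36 and 3.84%, 2.76 and 2.86%, and 2.53 and 2.40% in wt. The share in RNC-mRNA over that in mRNA was 2.57, 2.46 and 2.77 in *rps7*∆ and 2.47, 2.71 and 2.83 in wt, which are close. With library size alone in place of TMM the median loading change of all host genes moved to 0.30, and those of the large and small subunits to −0.13 and −0.05. Changing the scaling shifts all genes nearly equally, so the distance of a list median from that of all genes can hardly move. That distance was −0.43 for the large and −0.35 for the small subunit under both scalings, and is no test of the loss. A change of ribosome loading common to all mRNAs would not be seen in such data.

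Loading varied less from gene to gene in *rps7*∆ at the later times. The interquartile range of log2 loading over 5235 host genes was 1.66 at 24 h, 1.14 at 48 h and 1.26 at 72 h in *rps7*∆, against 1.54, 1.51 and 1.47 in wt. Over the 4 combinations of an RNC-mRNA with an mRNA library it ran between 1.61 and 1.71, 1.06 and 1.23, and 1.19 and 1.36 in *rps7*∆, and between 1.48 and 1.60, 1.44 and 1.62, and 1.43 and 1.57 in wt. The strains thus did not overlap at any time, with *rps7*∆ slightly wider at 24 h and narrower at 48 and 72 h.

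Other genes that were heavily loaded in wt also had medians below 0 at the later times, although most of them did not pass the test. Host genes were divided into quintiles by their loading in wt at 24 h, whose libraries do not enter the changes at 48 and 72 h; this division was chosen after the data had been seen. Of the 85 ribosomal protein genes, 83 were in the most loaded quintile. Leaving ribosomal protein genes out, the other 964 genes of that quintile had a median loading change of −0.33 at 48 h, with 24.7% lower and 0.83% higher, and of −0.23 at 72 h, with 25% lower and 7.37% higher, against the 9.3 and 10.1% at 48 h and 13.6 and 16.8% at 72 h over all host genes. The 1047 least loaded genes had a median of 0.47 at 48 h, with 0.478% lower and 25.7% higher, and of 0.17 at 72 h, with 11.3% lower and 17% higher, which is near the share over all host genes at that time. The median of the ribosomal protein genes was thus lower than that of the other genes of their quintile at both times, and no test of that difference was made.

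**Figure D3:**
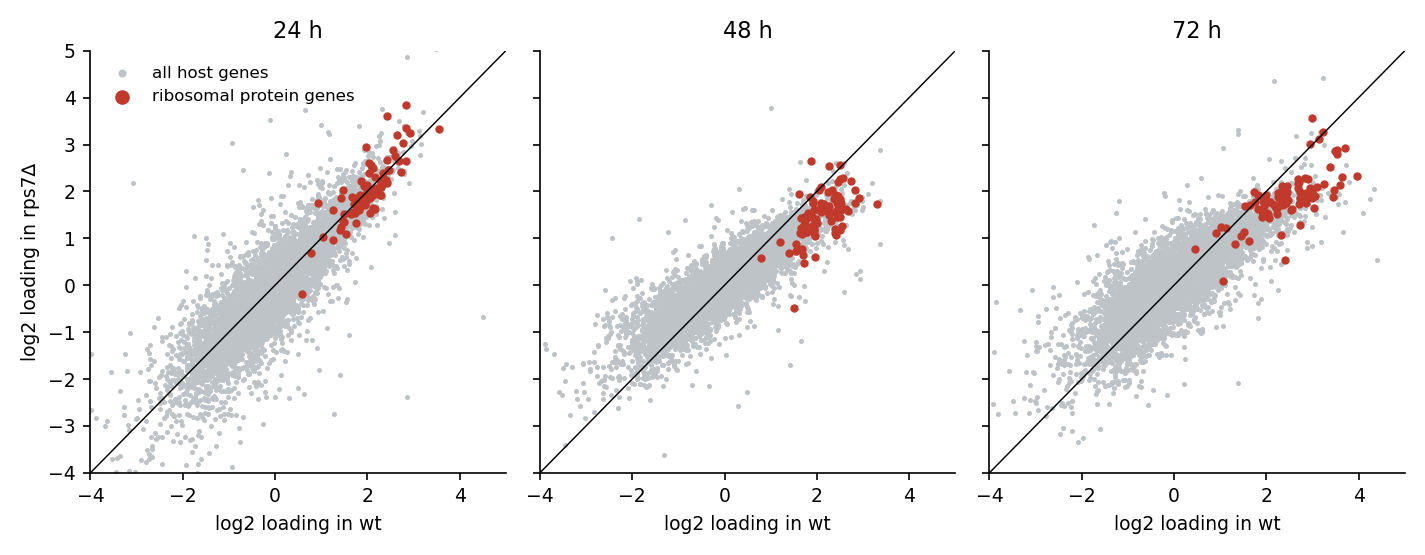
Loading (log2 of RNC-mRNA over mRNA, TMM-scaled) of each host gene in *rps7*∆ (y axis) against wt (x axis) at 24, 48 and 72 h, 1 panel per time, with ribosomal protein genes in red and the line of equal loading drawn; 26, 4 and 4 genes lie outside the axes. At 48 and 72 h the ribosomal protein genes lie mostly below the line (medians 1.57 against 2.12 and 1.84 against 2.42), while genes of low loading in wt lie mostly above it at 48 h.

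In the large subunit the lowest p belonged to *RPL22*, whose protein is dispensable for growth in *S. cerevisiae*. Averaged over times its RNC-mRNA fell by 1.42, while its mRNA had −0.21 (adjusted p = 0.0535, edgeR). In RNC-mRNA it had 443 and 430 CPM in *rps7*∆ and 362 and 402 in wt at 24 h, 125 and 141 against 330 and 450 at 48 h, and 35.2 and 50.8 against 267 and 396 at 72 h. In mRNA it had 144 and 158 in *rps7*∆ and 77.8 and 108 in wt at 24 h, 62.3 and 60.6 against 72.0 and 74.6 at 48 h, and 30.5 and 27.8 against 61.2 and 61.6 at 72 h. The *rps7*∆ libraries were thus the higher at 24 h in both assays and the lower later. *RPL22* loading fell by 1.22 ± 0.135 (SE, adjusted p = 8.64e-08, edgeR), with −0.51, −1.30 and −1.84 at 24, 48 and 72 h, and these differed among times (adjusted p = 0.0108, lost at 0.0509 without replicate 2 of wt mRNA at 24 h).

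*RPL8A*, whose protein takes part in processing the rRNA of the large subunit in *S. cerevisiae*, had the smallest p among times of all ribosomal protein genes (adjusted p = 3.25e-05, edgeR). In RNC-mRNA it had 137 and 171 CPM in *rps7*∆ and 216 and 201 in wt at 24 h, 14.3 and 18.2 against 342 and 325 at 48 h, and 17.0 and 15.3 against 123 and 170 at 72 h. In mRNA it had 95.7 and 93.6 against 126 and 118, 22.9 and 22.3 against 118 and 116, and 14.9 and 15.4 against 76.6 and 62.6 at these times. It was lower in *rps7*∆ in every library of both assays, most of all in RNC-mRNA at 48 h. The average loading change was −1.02 ± 0.119 (adjusted p = 1.75e-07), and it was −0.07, −2.02 and −0.97 at 24, 48 and 72 h. At 48 h the log2 ratio of RNC-mRNA to mRNA was −0.48 in *rps7*∆ against 1.51 in wt, which made *RPL8A* the least loaded large subunit gene in *rps7*∆ at that time. The gene is listed with 8 bases, so what part of its transcript was counted is unknown, and it has the paralog *RPL8B*.

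**Figure D4:**
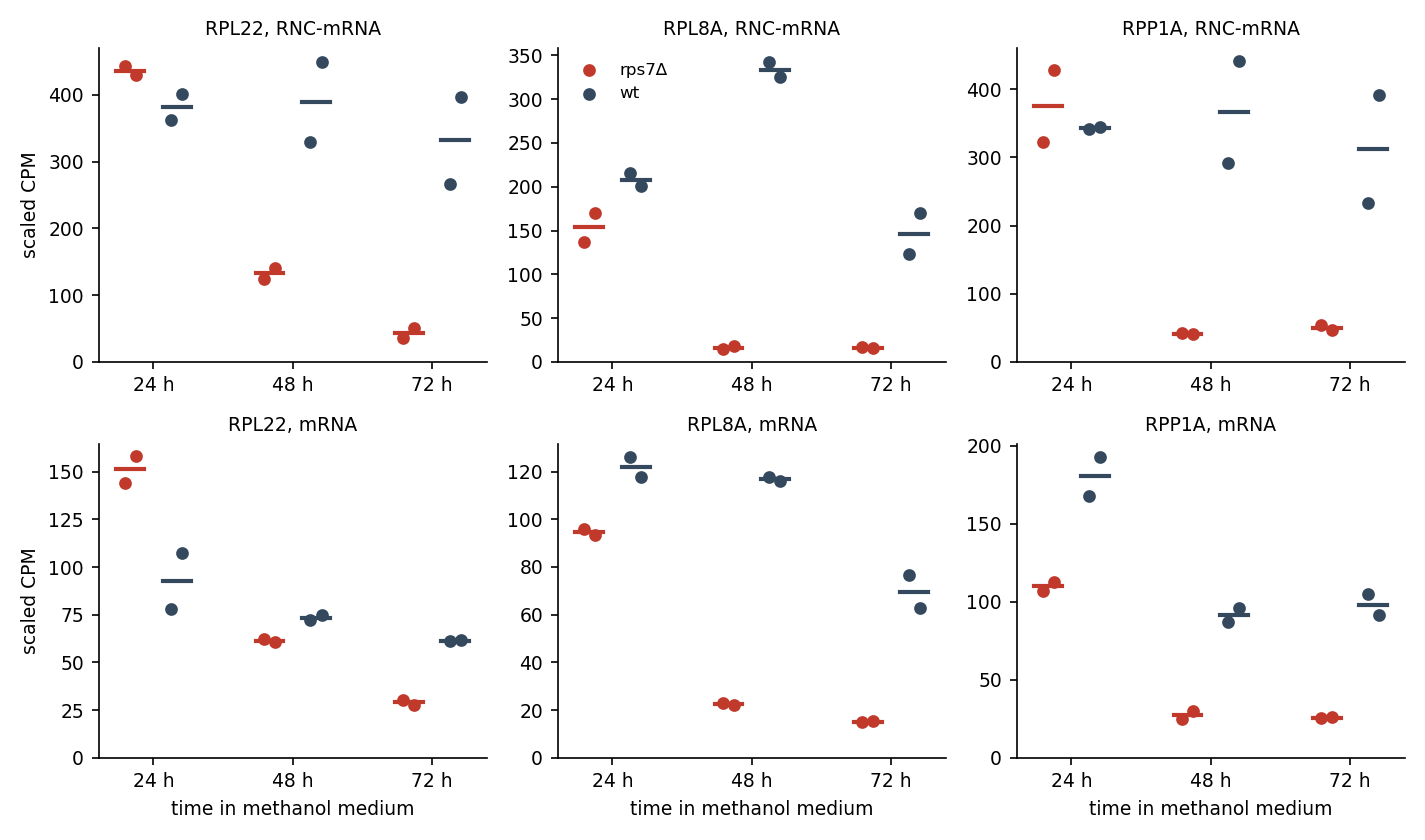
TMM-scaled CPM (y axis) of *RPL22*, *RPL8A* and *RPP1A* in RNC-mRNA (upper row) and mRNA (lower row) at 24, 48 and 72 h; points are libraries of *rps7*∆ (left of each pair) and wt, bars are the means of 2. *RPL8A* in RNC-mRNA at 48 h had 14.3 and 18.2 CPM in *rps7*∆ and 342 and 325 in wt, while its mRNA had 22.9 and 22.3 against 118 and 116.

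Other large subunit genes followed with smaller changes. *RPL42*, whose protein lines the exit site of tRNA, fell by 0.96 ± 0.137 (adjusted p = 4.27e-06, edgeR), with −0.53, −0.94 and −1.41 at the 3 times. *RPL25*, whose protein stands at the mouth of the exit tunnel and contacts the signal recognition particle, fell by 0.74 ± 0.137 (adjusted p = 1.22e-04), with −0.34, −0.84 and −1.03. For neither did the change differ among times (adjusted p = 0.118 and 0.226). *RPL7* fell by 0.62 ± 0.106 (adjusted p = 4.28e-05), with −0.19, −1.26 and −0.42, and did differ among times (adjusted p = 0.00591). Its RNC-mRNA at 48 h had 61.6 and 75.9 CPM in *rps7*∆ and 1256 and 1353 in wt, and its mRNA 44.8 and 53.5 against 387 and 400. In the fit of 60 libraries *RPL22*, *RPL8A* and *RPL42* still passed on average, while *RPL25* and *RPL7* did not (adjusted p = 0.0886 and 0.155).

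In the small subunit *RPS10*, whose protein sits in the head of the subunit, had the lowest p. It had 770 and 858 CPM in RNC-mRNA of *rps7*∆ and 841 and 806 in that of wt at 24 h, 99.2 and 88.3 against 488 and 592 at 48 h, and 57.5 and 42.2 against 803 and 807 at 72 h. In mRNA it had 177 and 167 against 132 and 183, 21.5 and 24.5 against 77.4 and 73.6, and 15.0 and 11.7 against 70.3 and 78.2. The strains overlapped at 24 h in both assays and were far apart afterwards. *RPS10* loading fell by 0.85 ± 0.120 (adjusted p = 3.64e-06, edgeR), with −0.14, −0.80 and −1.60 at the 3 times, which differed (adjusted p = 0.00211).

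*RPS14* and *RPS26* encode neighbours at the channel through which mRNA leaves the small subunit. *RPS14* fell by 0.76 ± 0.126 (adjusted p = 3.22e-05, edgeR), with −0.20, −0.94 and −1.13, and *RPS26* by 0.82 ± 0.136 (adjusted p = 3.46e-05), with −0.19, −1.10 and −1.17. At 72 h *RPS26* had 178 and 131 CPM in RNC-mRNA of *rps7*∆ and 1186 and 1449 in that of wt, and 45.1 and 37.4 against 153 and 165 in mRNA. Their differences among times (adjusted p = 0.0454 and 0.0384) were lost in 17 and 13 of the 24 fits that left out 1 library, reaching 0.134 and 0.156 without replicate 2 of wt mRNA at 24 h. In the fit of 60 libraries the average changes of *RPS10*, *RPS14* and *RPS26* did not pass (adjusted p = 0.0541, 0.0813 and 0.0858).

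**Figure D5:**
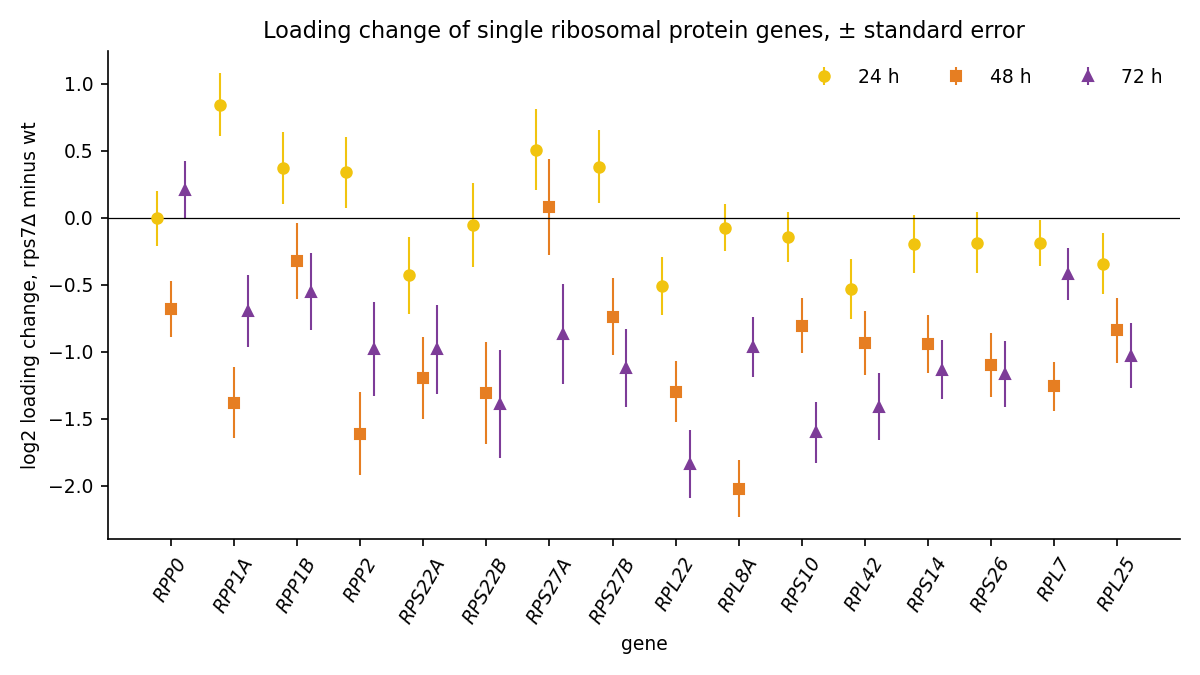
Loading change in *rps7*∆ against wt (y axis, log2, bars ± 1 SE of the fit) of 16 ribosomal protein genes named in the text (x axis), at 24 h (circles), 48 h (squares) and 72 h (triangles). *RPL8A* at 48 h (−2.02) and *RPL22* at 72 h (−1.84) lie lowest, and *RPP1A* at 24 h (0.84) highest.

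No ribosomal protein gene rose on average with all 24 libraries, but this count moved in 8 of the 24 fits that left out 1 library, up to 2 large subunit genes without replicate 2 of wt RNC-mRNA at 72 h. The 6 above 0 were *RPL29*, *RPL6B*, *RPS29*, *RPL38*, *RPL39* and *RPS30*, named after their values were seen, and *RPL29* had the highest value (0.59, adjusted p = 0.0587, edgeR). Of the 50 genes that fell on average, 37 were below 0 at all 3 times. This is close to the share over all host genes that fell on average, of which 672 of 952 were below 0 at all 3 times.

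The genes of the Rps7 neighbours gave a mixed picture. *RPS22A*, 1 of 2 genes of Rps22, fell by 0.87 ± 0.178 (adjusted p = 3.71e-04, edgeR), with −0.43, −1.20 and −0.98 at 24, 48 and 72 h. Its partner *RPS22B* fell by 0.92 ± 0.210 (adjusted p = 0.00113), with −0.05, −1.31 and −1.39. *RPS27B* fell by 0.49 ± 0.163 (adjusted p = 0.0188), with 0.38, −0.74 and −1.12, and differed among times (adjusted p = 0.0129). *RPS27A* had −0.09 ± 0.201 (adjusted p = 0.752), and its value was 0.15 without replicate 2 of wt RNC-mRNA at 72 h and 0.21 with library size alone. The value of *RPS22A* at 72 h was −0.54 (adjusted p = 0.208) without replicate 2 of wt RNC-mRNA at 72 h, and that of *RPS22B* at 48 h was −0.80 (adjusted p = 0.235) without replicate 2 of *rps7*∆ mRNA at 48 h.

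The mRNA of *RPS27B* was not lower in *rps7*∆ at the later times, unlike that of most ribosomal protein genes. It had 60.3 and 62.1 CPM in mRNA of *rps7*∆ at 48 h and 56.4 and 56.1 at 72 h, against 50.3 and 48.2 and 48.6 and 59.5 in wt. In RNC-mRNA it had 218 and 195 in *rps7*∆ and 222 and 337 in wt at 48 h, and 236 and 194 against 306 and 607 at 72 h. The wt replicates were far apart there, and without replicate 2 of wt RNC-mRNA at 72 h the average change was −0.31 and did not pass (adjusted p = 0.0508, edgeR). Leaving out replicate 2 of wt RNC-mRNA at 48 h gave 0.0651, and leaving out replicate 1 of *rps7*∆ mRNA at 24 h gave 0.0518. With library size alone the average of *RPS27B* was −0.19 (adjusted p = 0.295), and its value at 72 h was −0.57 (adjusted p = 0.0702) without replicate 2 of wt RNC-mRNA at that time. In the fit of 60 libraries *RPS22B* still passed on average, while *RPS22A* and *RPS27B* did not (adjusted p = 0.109 and 0.168). *RPS22B* and *RPS27A* are listed with 138 and 2 bases, and reads of the A and B copies may have been divided between them in counting.

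The stalk of the large subunit, which recruits translation factors, consists of P0 and the acidic P1 and P2 proteins. Of its 4 genes, 2 fell on average, and 3 fell and 0 rose at 48 h. Of all 85 ribosomal protein genes, 50 fell on average and 42 at 48 h. Over all host genes 18.2% fell on average, and 9.3% fell and 10.1% rose at 48 h. *RPP2* fell by 0.75 ± 0.179 (adjusted p = 0.0016, edgeR), with 0.34, −1.61 and −0.98 at the 3 times, and *RPP1A* by 0.41 ± 0.149 (adjusted p = 0.0309), with 0.84, −1.38 and −0.70. *RPP0* had −0.16 ± 0.121 (adjusted p = 0.315), with −0.68 at 48 h (adjusted p = 0.0219), and *RPP1B* had −0.17 ± 0.161 (adjusted p = 0.439). With library size alone *RPP0* and *RPP1B* became 0.13, and *RPP1A* had −0.11 and did not pass (adjusted p = 0.519).

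*RPP1A* changed sign between times. In RNC-mRNA it had 322 and 427 CPM in *rps7*∆ and 342 and 344 in wt at 24 h, 42.5 and 40.7 against 291 and 441 at 48 h, and 53.6 and 46.1 against 232 and 391 at 72 h. In mRNA it had 107 and 113 against 168 and 193, 24.7 and 30.1 against 87.0 and 96.3, and 25.3 and 26.1 against 105 and 91.4. At 24 h the mRNA was lower in *rps7*∆ while the RNC-mRNA of the strains overlapped, and later both were lower. The loading change passed upward at 24 h (adjusted p = 0.0106, edgeR) and downward at 48 h (adjusted p = 7.15e-04), and differed among times (adjusted p = 9.66e-05). Its average did not pass in 9 of the 24 fits that left out 1 library (adjusted p up to 0.0987), the call at 24 h did not without replicate 2 of *rps7*∆ RNC-mRNA at 24 h (adjusted p = 0.0768), and the *RPP0* call at 48 h did not in 6 (up to 0.152). *RPP2*, listed with 35 bases, had 10.1 and 4.87 CPM in mRNA of *rps7*∆ at 72 h, and without replicate 1 of that group its change at 72 h was −0.22 and its average −0.50 (adjusted p = 0.0837). In the fit of 60 libraries neither average passed (adjusted p = 0.226 for *RPP1A* and 0.14 for *RPP2*).

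Phy, the secreted product, also had lower loading in *rps7*∆. Its RNC-mRNA had 4319 and 3783 CPM in *rps7*∆ and 3117 and 3299 in wt at 24 h, 321 and 334 against 4777 and 3734 at 48 h, and 1198 and 616 against 2252 and 3227 at 72 h. Its mRNA had 4898 and 4388 against 2814 and 2893, 577 and 511 against 3693 and 3560, and 1049 and 868 against 2672 and 2655. Phy mRNA was thus higher in *rps7*∆ at 24 h and lower afterwards. The loading change was −0.48 ± 0.156 on average (adjusted p = 0.0161, edgeR), with −0.37, −0.96 (adjusted p = 0.0143) and −0.12 at the 3 times, and no difference among times was found (adjusted p = 0.196). The average did not pass with library size alone (−0.20, adjusted p = 0.205) or in the fit of 60 libraries (−0.49, adjusted p = 0.353), and the call at 48 h was lost without replicate 1 of *rps7*∆ mRNA, of wt RNC-mRNA or of *rps7*∆ RNC-mRNA at that time (adjusted p = 0.0547, 0.0788 and 0.0593).

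The chaperone genes, which assist protein folding, were taken from the list of the study, which gives them by ID only. Of 55, 25 fell and 5 rose in loading averaged over times, with a median of −0.21, against the background of 18.2 and 19.4%. At 24 h 8 fell and 7 rose (median −0.01), near the 12.1 and 9.91% of all host genes at that time. At 48 h 13 fell and 2 rose (−0.21), against 9.3 and 10.1%, and at 72 h 19 fell and 4 rose (−0.31), against 13.6 and 16.8%. The change differed among times for 21 of 55, or 38.2%, against 26.5% of all host genes. Of the 25 that fell, 18 had fallen in both RNC-mRNA and mRNA, 6 in RNC-mRNA alone, and 1 had risen in mRNA alone. Of all 952 host genes that fell on average, these were 424, 145 and 167. The 13 at 48 h became 3 without replicate 1 of *rps7*∆ RNC-mRNA, 7 without replicate 2 of *rps7*∆ mRNA and 8 without replicate 2 of wt RNC-mRNA at that time. With library size alone the median was 0.08 on average, 0.18 at 48 h and 0.13 at 72 h, that is, of the other sign. Its distance from the median of all genes was −0.22, −0.24 and −0.39, which a change of scaling can hardly move.

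The chaperone gene with the lowest value, Pipas_chr4_0552, was abundant in wt. It had 553 and 409 CPM in RNC-mRNA of *rps7*∆ and 8705 and 10810 in that of wt at 72 h, and 570 and 620 against 4088 and 3632 in mRNA. At 48 h it had 2807 and 3437 against 5402 and 4265 in RNC-mRNA and 3307 and 3461 against 3232 and 2956 in mRNA. Its loading fell by 0.79 ± 0.128 (adjusted p = 2.57e-05, edgeR), with 0.05, −0.76 and −1.65 at the 3 times, which differed (adjusted p = 9.04e-04).

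Pipas_chr4_0513 fell by nearly the same amount at every time. Its mRNA was 216 and 219 CPM in *rps7*∆ and 232 and 248 in wt at 24 h, 177 and 177 against 202 and 209 at 48 h, and 224 and 232 against 165 and 170 at 72 h. Its RNC-mRNA was 293 and 261 against 469 and 480, 204 and 221 against 461 and 400, and 359 and 287 against 416 and 435, lower in *rps7*∆ in every library. The loading change was −0.76 ± 0.0857 (adjusted p = 1.04e-07, edgeR), with −0.64, −0.81 and −0.84, and no difference among times was found (adjusted p = 0.682).

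Among the chaperone genes that rose, the largest changes were 0.52 ± 0.134 for Pipas_chr3_0480 (adjusted p = 0.00303, edgeR) and 0.45 ± 0.108 for Pipas_chr2-2_0015 (adjusted p = 0.00174). Pipas_chr3_0480 had 0.66, 0.75 and 0.17 at the 3 times, and its value at 24 h was 0.26 without replicate 1 of *rps7*∆ RNC-mRNA (adjusted p = 0.401). Pipas_chr2-2_0015 had 0.96, −0.13 and 0.52, which differed among times (adjusted p = 0.00798), and this was lost without replicate 1 of wt RNC-mRNA at 48 h (0.056) and with library size alone (0.0646). Its value at 72 h passed (adjusted p = 0.0442) and was lost in 13 of the 24 fits that left out 1 library, with 0.24 (adjusted p = 0.461) without replicate 2 of *rps7*∆ RNC-mRNA at 72 h, and also in DESeq2 (0.41, adjusted p = 0.119) and in the 8 libraries of 72 h alone (0.37, adjusted p = 0.212). Its average did not pass in the fit of 60 libraries (adjusted p = 0.0624).

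Outside these lists, the extreme genes that kept 1 sign at all times included IDs of near or neighbouring numbers, none with a gene name in the sources used here. Pipas_chr2-2_0200 fell by 1.82 ± 0.211 (adjusted p = 1.5e-07, edgeR) and Pipas_chr2-2_0199 by 1.76 ± 0.178 (adjusted p = 2.22e-08). Pipas_chr2-2_0199 had 19.2 and 24.3 CPM in RNC-mRNA of *rps7*∆ and 253 and 385 in that of wt at 48 h, and 16.0 and 19.1 against 36.4 and 45.1 in mRNA. Both had nearly the same changes at the 3 times, −1.55, −2.79 and −1.13 for Pipas_chr2-2_0200 and −1.52, −2.67 and −1.08 for Pipas_chr2-2_0199. Without replicate 1 of *rps7*∆ mRNA at 72 h, the value of Pipas_chr2-2_0200 at 72 h was −0.24 (adjusted p = 0.783), and its difference among times (adjusted p = 0.0449) was lost in 16 of the 24 fits that left out 1 library.

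In the other direction Pipas_chr1-4_0575 rose by 1.60 ± 0.246 (adjusted p = 1.16e-05, edgeR) and Pipas_chr1-4_0572 by 1.50 ± 0.140 (adjusted p = 4.97e-09). Pipas_chr1-4_0572 had 44.4 and 54.1 CPM in RNC-mRNA of *rps7*∆ and 21.7 and 15.8 in that of wt at 72 h, and 25.4 and 25.9 against 50.7 and 47.7 in mRNA, so that the strains were in opposite order in the assays. Its changes were 1.07, 1.12 and 2.29 at the 3 times and differed (adjusted p = 0.0135). Pipas_chr1-4_0575, listed with 85 bases, had 13.8 and 12.4 against 14.2 and 17.0 in RNC-mRNA at 48 h, and 3.43 and 4.60 against 18.4 and 20.4 in mRNA. At that time its mRNA differed and its RNC-mRNA differed little. At 72 h both were lower in *rps7*∆ (−1.09 in RNC-mRNA and −2.78 in mRNA). At 24 h its RNC-mRNA was higher (0.60, adjusted p = 0.0413, edgeR) and its mRNA did not pass (−0.47, adjusted p = 0.22).

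Loading changed in host genes of every level, and the median change differed with level and with listed length. By quintile of mean level, the median loading change averaged over times was 0.15 in the least and −0.12 in the most abundant quintile, where 34.3% of genes fell, against 4.49% in the least abundant. Over all host genes 18.2% fell and 19.4% rose. Ribosomal protein genes were not left out of the most abundant quintile, where 983 of 1047 genes were others. The test among times, which has no direction, also passed more often in the most than in the least abundant quintile (38.6 against 12.1%). The shares that fell thus do not show a direction by themselves. By quintile of listed length, from short to long, the medians at 24 h were 0.03, 0.02, −0.08, −0.14 and −0.16, and at 48 h −0.16, −0.02, 0.01, 0.11 and 0.15, so the order was turned round between these times. At 72 h they were −0.10, 0.18, 0.25, 0.17 and −0.13, lowest at both ends. Without ribosomal protein genes the shortest quintile had 0.03, −0.13 and −0.06 at these times. Whether level, length or wt loading has a part in the lower loading of ribosomal protein genes was not tested.

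*rps25*∆ lacks another small subunit protein, and a direct comparison with it in the fit of all 60 libraries leaves wt out. Averaged over times, 223 host genes rose and 212 fell in loading in *rps7*∆ against *rps25*∆ (4.26 and 4.05% of 5240). Of the ribosomal protein genes 0 rose and 1 fell, *RPL8A* with −0.84 ± 0.271 (adjusted p = 0.0463, edgeR), and this call was lost in 23 of the 24 fits that left out 1 library of these strains. At an unadjusted p under 0.05, 1 was higher and 2 were lower, and DESeq2 called 1 higher and 1 lower. The medians of the large and small subunits were −0.09 and −0.18 on average, against 0.01 over all host genes. They were 0.01 and 0.00 at 24 h, −0.33 and −0.50 at 48 h and −0.03 and −0.10 at 72 h, against −0.05, 0.03 and 0.04 over all host genes. At 48 h, where 0 ribosomal protein genes passed, this fit called 6 of all host genes higher and 3 lower. Of the 55 chaperone genes 6 fell and 1 rose, and Pipas_chr4_0513 had −0.46 ± 0.0901 (adjusted p = 0.0014). Beyond *RPL8A*, no ribosomal protein gene thus passed as lower in *rps7*∆ than in *rps25*∆ in these libraries, which does not show that the strains were alike.

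The split between genes that rose and fell depended on the scaling, which shifts all genes together and so leaves their ranking nearly as it was. Of the genes that passed on average 48.4% were lower with TMM, 59.5% with DESeq2 size factors, 58.9% in DESeq2 and 8.9% with library size alone. At 48 h these shares were 48, 58.3, 57.7 and 6.34%, and at 72 h 44.7, 59.1, 58.6 and 9.14%, while at 24 h they lay between 45.7 and 55.5% under every scaling. In mRNA and in RNC-mRNA alone, 47.6 and 46.6% of the genes that passed on average were lower with TMM and 21.1 and 13.8% with library size alone. Against *rps25*∆ the share was 48.7% with TMM and 15.3% with library size alone.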

How the data were processed

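Cells were treated with cycloheximide, ribosome-nascent chain complexes were pelleted through sucrose, and polyA+ RNA of pellets and of total RNA was sequenced on an Illumina HiSeq instrument after NEBNext Ultra II library preparation. Each deposited table holds a raw read count and an RPKM (reads scaled by gene length and library total) per gene, made by the authors; Phy reads were deposited in a separate table. Recomputing RPKM from counts and listed lengths gave the deposited values within 9.54e-05%. The submitters' processing notes name bcl2fastq 2.17; which aligner, counter and build were used is not given in the sources used here. No column of the authors' own comparisons was used, and 0 per-sample columns were left out.

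Counts were fitted with edgeR 4.0.16 in R 4.3.3 (TMM, quasi-likelihood, 12 group means over 24 libraries, 12 residual degrees of freedom, more than 10 reads in at least 2 libraries), which left 5235 of 5319 host genes and Phy. Values of single libraries are CPM after TMM scaling, and an SE belongs to the fitted log2 change. p-values were adjusted by Benjamini-Hochberg over all genes tested, with a threshold of 0.05, and rest on the 2 biological replicates per group that the methods of the study state. Alternatives used DESeq2 1.42.0, other scalings, filters and library sets. Counts of 5231 genes were also simulated with the spread of the fit. A loading change was given to 200 better-counted genes, as many up as down, and none to the others. The average loading change recovered 97% of genes changed by 1 and 100% of genes changed by 2 on the log2 scale. It called 11 of 5031 unchanged genes. At 48 h it recovered 73 and 96%, with 4 called. In the data far more genes passed on average (1016 higher and 952 lower), so the simulation does not test how the scaling behaves there.

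Ribosomal protein names come from the study's gene list (85 tested of 86, *RPS7* set aside) and chaperone IDs from its chaperone tables, which it compiled alongside these libraries. No host gene ID matched the reference gene table, so other genes carry IDs only. Members and lists were chosen with earlier results of these data known. Named genes were *RPS7*, Phy, the stalk and Rps7 neighbour genes, up to 8 ribosomal protein genes per direction by smallest average p and the 1 by smallest p among times, 2 chaperone IDs per direction by largest average change, and 2 other IDs per direction with 1 sign at all times and more than 10 reads in every library. Of the genes tested, 187 (13 of them ribosomal protein genes) are listed with under 150 bases, so which part of their transcript was counted is unknown, and 18 ribosomal protein genes form 9 A and B pairs that can share reads.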

Additional observations from a re-analysis of the deposited data

Results flagged for a closer look

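For 1389 host genes the loading change of *rps7*∆ against wt differed among 24, 48 and 72 h by the test of that difference (edgeR, Benjamini-Hochberg adjustment), and 14 of the named genes were among them. In the large subunit the adjusted p was 3.25e-05 for *RPL8A*, 9.66e-05 for *RPP1A*, 0.00224 for *RPP2*, 0.00591 for *RPL7* and 0.0108 for *RPL22*. In the small subunit it was 0.00211 for *RPS10*, 0.0129 for *RPS27B*, 0.0384 for *RPS26* and 0.0454 for *RPS14*. All of these had their highest value at 24 h. Among the chaperone IDs it was 0.000904 for Pipas_chr4_0552, whose value was lowest at 72 h, and 0.00798 for Pipas_chr2-2_0015, lowest at 48 h. Outside the lists it was 0.0135 for Pipas_chr1-4_0572, highest at 72 h, and 0.0219 for Pipas_chr2-2_0199 and 0.0449 for Pipas_chr2-2_0200, both lowest at 48 h. With 2 samples a group, no sample could be examined as standing apart from its own group. In the fit of all 60 libraries *RPP1A* alone among these 14 still passed (adjusted p = 0.038).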

How the results depend on the processing

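Samples were divided into an RNC and a total RNA aliquot in the study, but no source used here says whether equal replicate numbers mark the same culture. The correlation of replicate differences over genes between mRNA and RNC-mRNA was −0.027 to 0.15 in the 6 strain and time groups and did not show such a pairing. With the replicate number as a block, 940 and 927 genes were higher and lower in loading on average, 478 and 555 at 24 h, 483 and 496 at 48 h, 804 and 682 at 72 h, and 1287 differed among times; Pipas_chr2-2_0015 (adjusted p = 0.0523) and Pipas_chr2-2_0200 (0.0566) no longer passed at 72 h.

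With library size alone the counts higher and lower were 2364 and 231 on average, 1803 and 122 at 48 h, 2347 and 236 at 72 h, 3554 and 952 in mRNA, 4059 and 649 in RNC-mRNA, and 458 and 83 against *rps25*∆. Large subunit, small subunit and chaperone genes lower were then 13, 10 and 8 on average, 13, 7 and 4 at 48 h, and 11, 7 and 9 at 72 h. Their medians were −0.127, −0.054 and 0.079 on average, and for chaperones 0.18 at 48 h and 0.13 at 72 h; *RPP0*, *RPP1B* and *RPS27A* had 0.13, 0.13 and 0.21. The construction of this setting, which drops the TMM factors, shifts all genes together. Differences among times were then lost for *RPL22* (adjusted p = 0.093), *RPS14* (0.183) and *RPS26* (0.175).

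In the fit of all 60 libraries the counts higher and lower were 506 and 393 on average, 192 and 170 at 24 h, 128 and 77 at 48 h, and 286 and 219 at 72 h, and 259 differed among times. The 3 lists lower were 6, 2 and 10 on average, 2, 0 and 3 at 48 h, and 2, 0 and 9 at 72 h. Its larger dispersion stands beside these counts, and the cause was not tested. In the 8 libraries of 72 h alone 366 genes were higher.

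With an added limit of 1 on the absolute log2 change, the counts higher and lower were 69 and 28 on average, 160 and 182 at 24 h, 152 and 79 at 48 h, 248 and 183 at 72 h, 434 and 540 in mRNA, 585 and 592 in RNC-mRNA, and 25 and 11 against *rps25*∆. The 3 lists lower were 2, 0 and 0 on average, 8, 6 and 1 at 48 h, and 8, 8 and 5 at 72 h.

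Leaving out 1 library at a time gave 344 to 722 genes lower at 24 h, 283 to 630 higher and 241 to 602 lower at 48 h, and 139 to 194 lower against *rps25*∆. It gave 11 to 29 large subunit, 7 to 22 small subunit and 3 to 15 chaperone genes lower at 48 h, and 11 to 37 and 9 to 22 subunit genes lower at 72 h. *RPP1B* ran between −0.299 and 0.017, the highest without replicate 2 of wt RNC-mRNA at 48 h, and *RPS27A* between −0.273 and 0.152, the highest without replicate 2 of wt RNC-mRNA at 72 h. Settings chosen after seeing the data, members listed with at least 150 bases and members without a paralog pair, left 26 and 25 of the large subunit and 17 and 15 of the small subunit lower on average.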

Other observations

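Over all host genes, those of the lists included, loading moved in both directions and by different routes. Of the 1016 host genes with higher loading in *rps7*∆ than in wt, 312 had risen in both RNC-mRNA and mRNA, 221 in RNC-mRNA alone, 154 had fallen in mRNA alone, 229 had fallen in both, and 96 had risen in RNC-mRNA and fallen in mRNA (edgeR, averaged over times). Of the 952 with lower loading, 424 had fallen in both, 145 had fallen in RNC-mRNA alone, 167 had risen in mRNA alone, 150 had risen in both, and 56 had fallen in RNC-mRNA and risen in mRNA. The remaining 4 and 10 genes passed in neither assay.

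Higher loading was called at all 3 times for 82 host genes and lower loading for 36. Of these 36, 1 was a chaperone gene and 0 were ribosomal protein genes. Only 1 ribosomal protein gene passed downward at 24 h, so no more than 1 could be among the 36.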
